A study of Mus musculus with 71 samples.

Results

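The SoxC genes Sox4, Sox11 and Sox12, the SoxD genes Sox5, Sox6 and Sox13 and the SoxE genes Sox8, Sox9 and Sox10 are 9 transcription factor genes, and 6 of them had at least 1 chromatin loop in mouse synovial sarcoma (SyS). A loop was counted for a gene when either of its anchors lay within 2 kb of a transcription start site (TSS) of that gene. By this rule 27 of the 24244 loops of the merged list belonged to the 9 genes, which are 9 of 55304 genes in the GENCODE annotation. The loops came from H3K27ac HiChIP of 2 hSS2 mouse tumors. These mice carry the human SS18::SSX2 fusion as the hSS2 allele at Rosa26, silent until Cre recombination, and tumors were started by injecting TATCre protein into the hindlimb at 8 days of life. Both tumors carried the fusion, no normal tissue was assayed, and a dissociated tumor can hold cells other than SyS cells, so that fewer cells with a loop and a weaker loop per cell cannot be told apart. A loop list measures no expression, so the tissue label was not checked against marker genes. The other samples of the series are ChIP-seq and input samples and were not analysed here.

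Sox proteins bind the minor groove of DNA through an HMG box and bend it. SoxC proteins are transcriptional activators of progenitor cells in the developing nervous system and mesenchyme. SoxD proteins lack a known activation or repression domain, form dimers through a coiled coil and work together with other Sox proteins. SoxE proteins direct the neural crest, glia, gonad and cartilage, where Sox9 acts with Sox5 and Sox6. HiChIP joins proximity ligation to immunoprecipitation. With an antibody against H3K27ac, a mark of active promoters and enhancers, it samples contacts that involve such elements at either or both anchors.

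The merged list held 41574 paired-end tags, and 78.0% of its loops had a single tag. It was made of 2 parts, the first with 28657 tags and the second with 12917, which were not assigned to tumors. No replicate values were given, so intervals below cover counting error only, and no difference was tested between tumors. The loop score of a gene was the sum of the tags of its loops. At the 9 promoters it came to 47 tags (exact Poisson 95% interval 34.5 to 62.5), of which 31 were at SoxD, 13 at SoxC and 3 at SoxE genes.

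Loops were found at Sox4, Sox12, Sox5, Sox6, Sox13 and Sox9, and none at Sox11, Sox8 or Sox10. The looped share of 6 of 9 genes, 66.7% (Wilson 95% interval 35.4 to 87.9), stood beside 45.8% of the 21911 protein-coding genes and 23.9% of all GENCODE genes. The interval contains the protein-coding share, so no difference was detectable with 9 genes. Sox6 had the highest score, 17 tags (9.90 to 27.2), followed by Sox13 with 10 (4.80 to 18.4) and Sox12 with 9 (4.12 to 17.1). Sox4 and Sox5 had 4 tags each (1.09 to 10.2) and Sox9 had 3 (0.619 to 8.77). Each of these intervals overlapped that of its neighbor in the order. The interval of Sox6 did not overlap that of Sox9, nor those of the 3 genes with no tag, for which the upper bound was 3.69. Both the first place of Sox6 and its separation from Sox9 rested on 1 short loop between its own promoters, since with loops of at least 20 kb Sox6 had 9 tags (4.12 to 17.1), fewer than Sox13 and with an interval that overlapped that of Sox9. In the first part of the list Sox6 had 0 tags and Sox9 had 3. A count of 0 allows up to 3 tags, so Sox9 was not separated from the genes without loops.

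**Figure D1:**
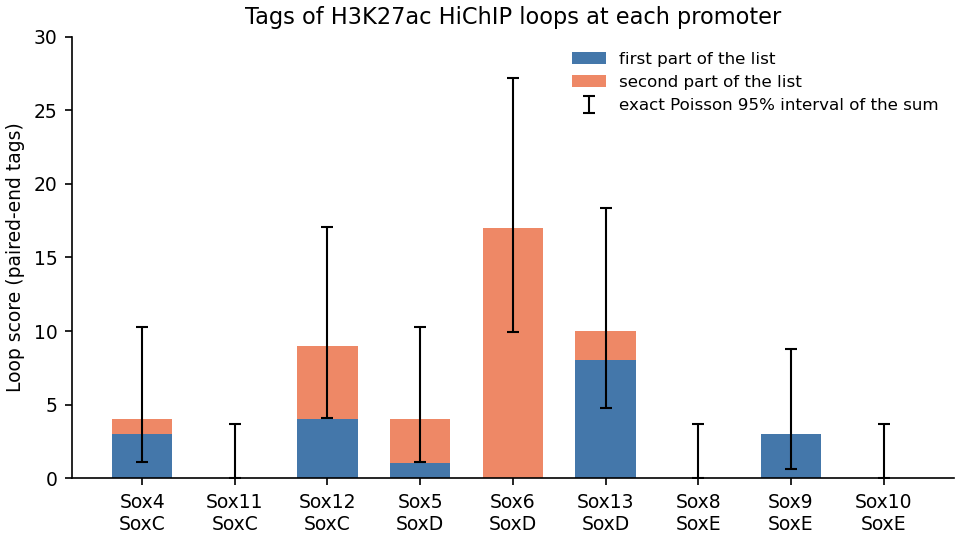
Loop score of each gene in paired-end tags (y axis), stacked by the part of the merged list that gave the tags, with the exact Poisson 95% interval of the sum. Sox6 has 17 tags, all from the second part, and Sox11, Sox8 and Sox10 have 0.

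Among the 10035 looped protein-coding genes the median score was 4. Sox6 exceeded 87.1% of them, Sox13 76.2% and Sox12 73.5%. Sox4 and Sox5 each exceeded 46.0% and Sox9 35.2%. A score of at least 10 was reached by 10.9% of protein-coding genes and by 2 of the 9, Sox6 and Sox13. A loop with an FDR under 0.01, the caller's p-value adjusted for multiple testing, was present at 17.5% of protein-coding promoters and at 4 of the 9, Sox4, Sox12, Sox6 and Sox13. Both parts of the list gave loops to 24.3% of protein-coding genes and to 4 of the 9, Sox4, Sox12, Sox5 and Sox13. With 9 genes, these counts of 2 and 4 describe the genes and were not tested against the background.

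**Figure D2:**
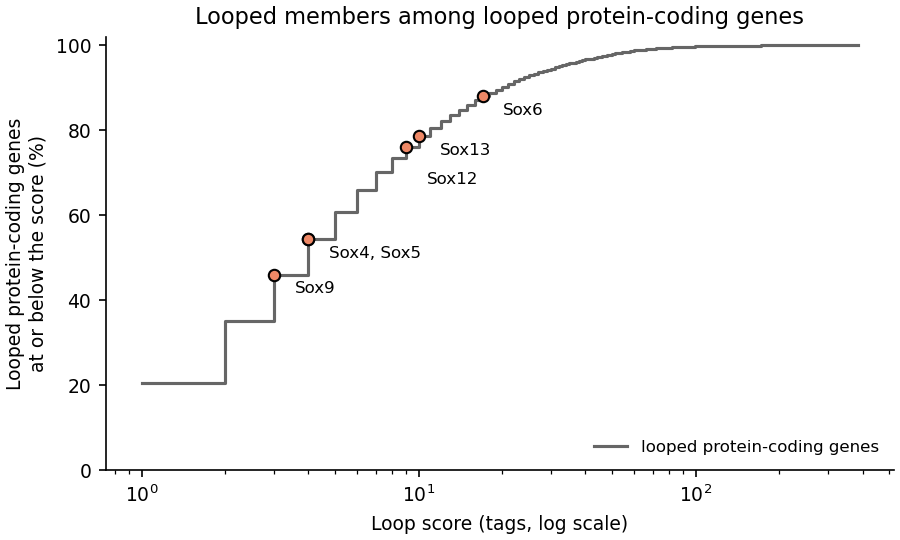
Share of looped protein-coding genes (y axis, %) at or below each loop score (x axis, tags, log scale), drawn as a line, with the 6 looped genes as points. Sox9 (3 tags), Sox4 and Sox5 (4 tags) lie near the median of 4, and Sox6 (17 tags) lies highest of the 6.

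Sox4, which is required in heart outflow tract and lymphocyte development, is a single-exon gene at chr13:28948919-28953713 on the minus strand of mm10 (ENSMUSG00000076431.4). All 3 of its loops left from the anchor chr13:28950435-28954625, which covers the promoter and most of the gene, and ran upstream. The strongest, with 2 tags and an FDR of 0.00053, reached E2f3, a cell cycle transcription factor, over a span of 1032 kb and passed over 1 protein-coding gene, Cdkal1. A single-tag loop reached Cdkal1, a tRNA-modifying enzyme, at 903 kb. The third, also of 1 tag, reached chr13:29407369-29409365 at 456 kb, which lies inside Cdkal1 but 65.2 kb from the nearest TSS. A second anchor, chr13:28957010-28960862, lay 3.30 kb upstream of the Sox4 TSS and so outside the rule. It also reached E2f3, with 2 tags and a span of 1026 kb, and had loops of 1 tag to Uqcrfs1 and to Gm40841. With a window of 5 kb these 3 loops would raise the score of Sox4 from 4 to 8. The E2f3 contact was thus called from both anchors at Sox4, with both calls in the part that holds more tags. The promoter (RefSeq, GRCm38.p6, minus strand) held 12 CpG dinucleotides, more than 60.4% of RefSeq promoters. It is shown beside the distal window at 456 kb, the contact of Sox4 that lies far from any TSS. CG is in capitals in the promoter, and in the window AACAAAG, 1 of the 2 SOX motifs of that anchor (the motifs searched were AACAAT and AACAAAG on both strands).
Sox4 promoter chr13:28953650-28953949: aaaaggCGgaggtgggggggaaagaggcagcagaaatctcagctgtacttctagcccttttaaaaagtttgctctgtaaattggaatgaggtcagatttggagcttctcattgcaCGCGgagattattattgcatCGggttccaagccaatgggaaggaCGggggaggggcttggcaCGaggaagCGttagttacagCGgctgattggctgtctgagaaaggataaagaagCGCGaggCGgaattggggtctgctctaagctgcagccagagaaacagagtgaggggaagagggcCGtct
Sox4 distal window chr13:29407581-29407880, plus strand: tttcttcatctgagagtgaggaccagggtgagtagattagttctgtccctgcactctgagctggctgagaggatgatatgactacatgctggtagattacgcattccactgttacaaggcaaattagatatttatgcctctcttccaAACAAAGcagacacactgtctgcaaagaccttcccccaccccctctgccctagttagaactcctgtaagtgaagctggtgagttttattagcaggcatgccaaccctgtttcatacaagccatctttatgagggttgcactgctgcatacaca

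Sox12, a SoxC gene whose loss is tolerated in mice, lies at chr2:152393611-152398063 on the minus strand (ENSMUSG00000051817.8). It had 5 loops, and tags were split evenly between the parts, 4 and 5. The loop with the most tags, 4 with an FDR of 0.027, spanned 18 kb to the shared promoter region of Zcchc3, a zinc finger protein gene, 6820408C15Rik and the non-coding Gm27343. A 2-tag loop with an FDR of 0.0062 spanned 299 kb to H13, the signal peptide peptidase gene, and Gm26841, and passed over 16 protein-coding genes. The remaining 3 loops had 1 tag each. A loop of 844 kb reached Pofut1, which adds O-fucose to Notch receptors, and Plagl2, a zinc finger transcription factor. Both others ran downstream over 450 and 434 kb to a pair of anchors with no TSS within 2 kb, whose nearest TSSs were 3.22 and 3.54 kb away. The Sox12 promoter held the most CpG dinucleotides of the 12 promoters matched for these genes, 47 in 300 bases, more than 98.6% of RefSeq promoters. CG is in capitals.
Sox12 promoter chr2:152397997-152398296, minus strand: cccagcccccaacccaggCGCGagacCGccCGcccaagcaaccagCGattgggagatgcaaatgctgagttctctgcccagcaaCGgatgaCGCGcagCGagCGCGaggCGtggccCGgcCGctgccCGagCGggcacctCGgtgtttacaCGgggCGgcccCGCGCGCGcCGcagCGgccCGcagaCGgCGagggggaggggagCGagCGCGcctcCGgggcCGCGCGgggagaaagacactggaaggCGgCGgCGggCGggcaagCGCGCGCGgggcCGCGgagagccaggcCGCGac

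Sox11, which acts in neuronal differentiation, had no loop. The gene lies at chr12:27334264-27342574 on the minus strand (ENSMUSG00000063632.6) with only 3 other protein-coding genes within 1 Mb. The nearest anchor of the list, at Cmpk2, was 871 kb away, and 1 loop passed over the promoter. Only 4 anchors lay within 1 Mb, where the median protein-coding gene had 19. Its promoter held 21 CpG dinucleotides in 300 bases, more than 75.2% of RefSeq promoters. Sox8, also without a loop, had the same number. Looped genes lay on both sides of this number, Sox4 with 12 and Sox13 and Sox12 with 40 and 47. The Sox11 promoter is shown with CG in capitals.
Sox11 promoter chr12:27342669-27342968, minus strand: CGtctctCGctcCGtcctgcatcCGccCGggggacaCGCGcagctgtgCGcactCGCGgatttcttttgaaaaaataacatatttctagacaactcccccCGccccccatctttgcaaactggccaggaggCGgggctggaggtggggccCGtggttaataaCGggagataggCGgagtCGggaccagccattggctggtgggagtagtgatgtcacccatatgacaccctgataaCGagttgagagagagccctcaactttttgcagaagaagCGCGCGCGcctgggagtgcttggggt

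The SoxD genes were all looped and held 16 of the 27 loops. Sox6, which promotes the chondrocyte lineage and silences embryonic globin genes, had 8 loops and 17 tags. All came from the second part of the list, which holds fewer tags than the first. The first part gave Sox6 0 tags, which allows up to 3. The gene covers 568 kb at chr7:115470872-116038796 on the minus strand (ENSMUSG00000051910.13) with 13 TSS positions. The loops left from 2 neighboring anchors, 5.12 and 4.81 kb wide. The first, chr7:116036969-116042085, holds the 5′-most TSSs and a TSS of 1110004F10Rik. It carried 5 of the 8 loops and 12 of the 17 tags, which the rule counts for 1110004F10Rik as well. The list cannot assign them to 1 of these 2 genes. The second, chr7:116030443-116035247, holds a TSS at 116031047 and the antisense gene Sox6os. It carried 4 loops and 13 tags, which the rule counts for Sox6os as well. The first and second anchors were joined to each other by the loop with the most tags of all 27. This loop, included in the counts of both anchors, had 8 tags, an FDR of 0.00064 and a span of 6.68 kb. A loop this short lies near the 5.00 kb at which the shortest loop at a promoter was listed, and without loops under 20 kb the score of Sox6 was 9. Both promoters of the pair are shown on the minus strand with CG in capitals, 11 in the 5′ one and 13 in the other.
Sox6 promoter chr7:116038695-116038994: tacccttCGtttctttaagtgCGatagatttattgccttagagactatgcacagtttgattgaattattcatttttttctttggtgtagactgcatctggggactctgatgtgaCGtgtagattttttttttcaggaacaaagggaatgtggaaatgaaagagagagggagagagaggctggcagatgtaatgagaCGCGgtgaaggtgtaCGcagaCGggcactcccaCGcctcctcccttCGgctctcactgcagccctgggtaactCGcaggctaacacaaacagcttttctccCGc
Sox6 promoter chr7:116030998-116031297: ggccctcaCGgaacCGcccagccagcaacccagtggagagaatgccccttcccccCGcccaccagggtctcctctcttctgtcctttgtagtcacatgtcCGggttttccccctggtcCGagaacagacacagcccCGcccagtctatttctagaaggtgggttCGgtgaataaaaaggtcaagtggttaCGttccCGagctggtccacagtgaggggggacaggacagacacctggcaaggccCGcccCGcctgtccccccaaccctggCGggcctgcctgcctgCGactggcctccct

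The other loops of Sox6 ran mostly into its own gene body. Of the 8, 7 ran downstream and 5 ended with no TSS within 2 kb. Both promoter anchors reached the same intronic anchor, chr7:115865468-115869091, the second with 2 tags (FDR 0.0021, 166 kb) and the first with 1 tag (172 kb). Its nearest TSS was 5.62 kb away. A 2-tag loop with the lowest FDR of the gene, 0.00029, spanned 741 kb to chr7:115291514-115292833, beyond the 3′ end of Sox6 and 119.2 kb from the nearest TSS of any gene. Loops of 1 tag ended within Sox6 at 372, 226 and 215 kb, and the last of these overlapped an internal TSS of Sox6. The only other protein-coding gene reached was Plekha7, an adherens junction protein gene, by 1 tag at 158 kb upstream. The intronic anchor held 12 SOX motifs, taken as AACAAT or AACAAAG on either strand, in 3.62 kb. The far anchor held 2 in 1.32 kb. The 300 bases of each that held the most are shown on the plus strand with these motifs in capitals, ATTGTT and CTTTGTT being the same motifs read on the other strand.
Sox6 intronic anchor, window chr7:115866190-115866489: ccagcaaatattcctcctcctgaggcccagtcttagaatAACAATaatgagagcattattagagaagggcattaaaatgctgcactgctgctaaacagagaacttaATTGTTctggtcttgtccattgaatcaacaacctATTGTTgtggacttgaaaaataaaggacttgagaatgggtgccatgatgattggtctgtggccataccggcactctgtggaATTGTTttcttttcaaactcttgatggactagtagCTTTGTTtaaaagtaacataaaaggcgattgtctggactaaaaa
Sox6 far anchor, window chr7:115292447-115292746: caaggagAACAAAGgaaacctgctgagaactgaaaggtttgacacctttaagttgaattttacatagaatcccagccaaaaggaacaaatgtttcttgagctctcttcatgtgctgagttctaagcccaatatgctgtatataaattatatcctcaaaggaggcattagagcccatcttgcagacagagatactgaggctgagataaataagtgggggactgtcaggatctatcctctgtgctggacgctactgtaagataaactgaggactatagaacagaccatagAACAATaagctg

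Sox13, a SoxD gene expressed in lymphocytes and the developing nervous system, lies at chr1:133382303-133424377 on the minus strand (ENSMUSG00000070643.11). Its 4 loops all ended at a TSS of another gene. The loop to Snrpe, which encodes a core protein of the spliceosome, had 6 tags, the lowest FDR of the 27 loops at 2e-06 and a span of 186 kb, and its anchor also held Gm26706. The loop to Ppp1r15b, a regulatory subunit of the phosphatase that acts on eIF2 alpha, and Gm26616 had 2 tags, an FDR of 0.00065 and a span of 291.8 kb. That loop was the only one from the second part and passed over 6 protein-coding genes. Single tags joined Sox13 to Adora1, the adenosine A1 receptor gene, at 811 kb and to Adipor1, an adiponectin receptor gene, at 992 kb. The distal anchors overlapped those of 9 loops in the list at Snrpe, 13 at Ppp1r15b, 10 at Adipor1 and 4 at Adora1. An anchor 4.16 kb from an internal TSS of Sox13, outside the rule, gave a further single-tag loop to Snrpe in the second part. With a window of 5 kb the score of Sox13 rose from 10 to 13. The Sox13 promoter, at chr1:133424163-133424462, held 40 CpG dinucleotides in 300 bases, more than 96.1% of RefSeq promoters.

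Sox5, the partner of Sox6 in cartilage, had 4 single-tag loops, 1 in the first part and 3 in the second. The gene covers 954 kb at chr6:143828425-144781977 on the minus strand (ENSMUSG00000041540.16). Of these loops, 3 left from its 5′-most TSSs, which belong only to non-coding transcripts, so that with TSSs of protein-coding transcripts alone the score fell to 1. The shortest, 181 kb upstream, ended at chr6:144961593-144962929, 69.9 kb from any TSS. The longest left from the internal promoter near 143947106 and spanned 1287 kb upstream to an anchor with no TSS within 2 kb. Another reached Sox5os2, within Sox5, at 301 kb. The internal Sox5 promoter held 3 CpG dinucleotides, fewer than the median of 7 over RefSeq promoters.

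**Figure D3:**
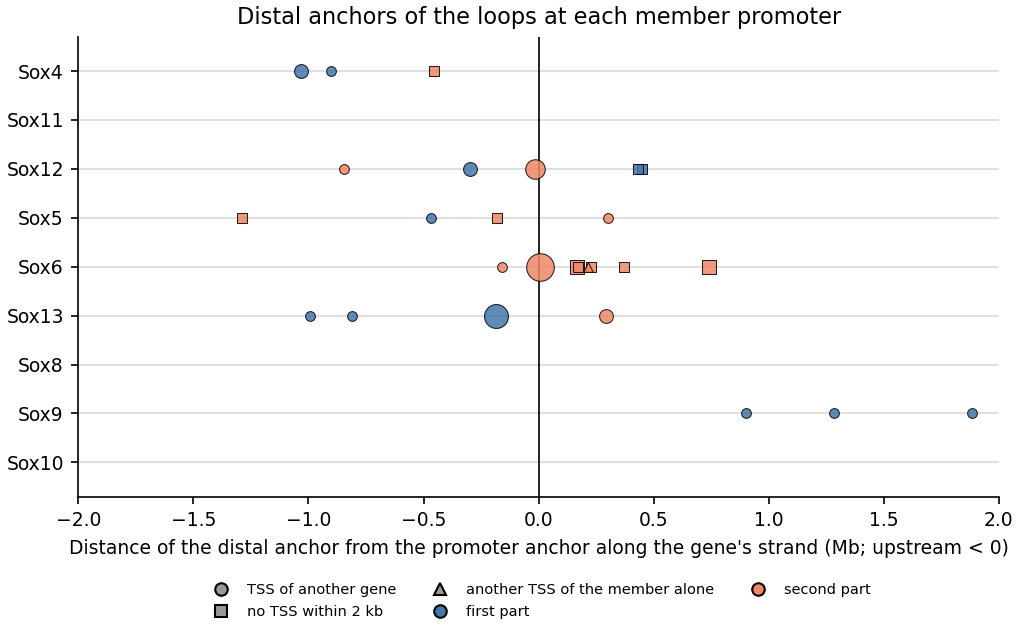
Distance of each distal anchor from the promoter anchor (x axis, Mb along the strand of the gene, upstream negative) for the 27 loops, with area proportional to tags, color for the part of the list and shape for what lies at the distal anchor. All 3 loops of Sox4 run upstream and all 3 of Sox9 downstream, and 7 of the 8 of Sox6 run downstream into or past the gene body.

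Of the SoxE genes, Sox9, the regulator of chondrocyte fate and testis determination, was looped and Sox8 and Sox10 were not. Sox9 lies at chr11:112782224-112787760 on the plus strand (ENSMUSG00000000567.5) in a region with 7 other protein-coding genes within 1 Mb and none within 500 kb. Its anchor, chr11:112780093-112788266, spanned the whole gene and a TSS of the non-coding BC006965, for which the rule counts the same loops. This anchor was 8.17 kb wide, wider than 99.8% of the 16864 anchors. The 3 loops had 1 tag each, all from the first part and with FDRs of 0.026. All ran downstream over long spans, to D11Wsu47e and Fam104a at 900.2 kb, to Sdk2, an immunoglobulin superfamily adhesion gene, at 1282 kb and to Rpl38, a ribosomal protein gene, at 1885 kb. The Rpl38 loop was the longest of the 27. The anchors at Sdk2 and Rpl38 overlapped those of 10 loops each in the list and that at Fam104a 6.

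Sox8 and Sox10 lay in dense surroundings without being anchored. Sox8, at chr17:25565892-25570686 on the minus strand (ENSMUSG00000024176.10), is expressed in neural crest and testis. It had 92 anchors within 1 Mb, 84 loops passing over its promoter and the nearest anchor, at Lmf1, only 7.52 kb away. Sox10, the neural crest and glial regulator at chr15:79154908-79165240 on the minus strand (ENSMUSG00000033006.10), had 58 anchors within 1 Mb, 40 loops passing over and the nearest anchor, at Micall1, 54.8 kb away. The medians over protein-coding genes were 19 anchors and 5 loops passing over. The 3 genes without loops thus had the fewest, Sox11 with 4, and the most anchors within 1 Mb of the 9. None of them gained a loop with a window of 5 kb, with RefSeq TSSs or with anchors resized to 4 kb. Their nearest anchors lay at least 7.52 kb away, so the wider window and the resized anchors could not have added one.

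**Figure D4:**
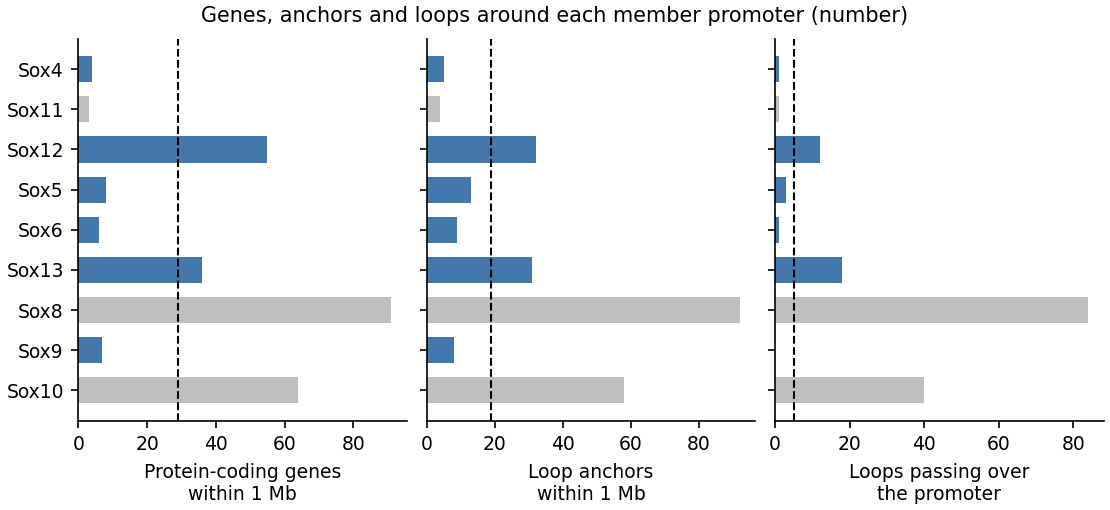
Number of protein-coding genes within 1 Mb, of loop anchors within 1 Mb and of loops passing over the promoter for each gene (bars; blue, looped; gray, without a loop), with the median of all protein-coding genes as a dashed line at 29, 19 and 5. Sox8 and Sox10 exceed the medians in all 3 panels, and Sox11 lies below them.

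Gene density went with the looped share over the genome. Protein-coding genes with 0 to 4 others within 1 Mb were looped in 28.5%, those with 5 to 9 in 39.2% and those with 40 or more in 48.9%. Sox4 and Sox11 fell in the first of these ranges, Sox5, Sox6 and Sox9 in the second and Sox12, Sox8 and Sox10 in the last. Sox13, with 36, was in a range of 20 to 39 in which 46.3% were looped.

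Distal anchors lay near a TSS of another gene in 16 of the 27 loops or 59.3% (Wilson 40.7 to 75.5), an interval below the 87.9% of 48700 pairs of protein-coding gene and loop. Of the others, 10 had no TSS within 2 kb and 1 had only a TSS of Sox6 itself. The 16 included the loop between the 2 Sox6 promoter anchors, counted through Sox6os, and the Sox5 loop to Sox5os2. With RefSeq TSSs the share was 14 of 27 or 51.9%, and with a window of 5 kb it was 24 of 33 or 72.7%. Without Sox6 the share was 14 of 19 or 73.7% (51.2 to 88.2), an interval that contains 87.9%. Among Sox4, Sox5, Sox6 and Sox9, with up to 9 protein-coding genes within 1 Mb, it was 9 of 18 or 50.0% (29.0 to 71.0), and over all such genes it was 68.2%, within the interval. A difference was therefore not detectable without Sox6 or against genes in similarly sparse regions. The intervals treat loops as independent, although loops of a gene often share an anchor, so they can be too narrow. The 48700 pairs count a loop once for each protein-coding gene at its anchors. In the first part of the list alone the share was 83.3% and in the second 40%.

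In span, strength and part of the list the 27 loops were described in the same way. The median span was 434 kb (95% interval 215 to 844), and that of the 23312 loops at promoters was 506 kb. It was 855 kb for the 12 loops from the first part and 226 kb for the 15 from the second. Single-tag loops made up 70.4% (51.5 to 84.1) against 77.8%, and loops with an FDR under 0.01 made up 25.9% (13.2 to 44.7) against 15.4%. Each interval contained the value of all loops at promoters. The second part of the list gave 59.6% of the tags (45.3 to 72.4) against 30.1%, but 36.7% (21.9 to 54.5) without Sox6, so that the excess rested on Sox6. None of the 27 loops was found at overlapping anchors in both parts (0.00 to 12.5%), against 7.49% of loops at promoters, a value within the interval.

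Sequence at the anchors was set beside all anchors of the list. The 11 anchors at these promoters had 1.18 to 7.95 CpG per 100 bases with a median of 5.96, but 3 promoters were listed with a pair of overlapping anchors. With overlapping anchors counted once, by the wider, the median was 4.45 over 8 places and 3.57 over the 10007 places of all anchors near a TSS. The 9 distal anchors with no TSS had a median of 0.949 CpG per 100 bases, against 1.33 for the 3885 such anchors of the list. SOX motifs occurred at 1.36 per kb in those 9 anchors and at 0.828 per kb in the 3885. Without the intronic anchor of Sox6, which held 12, the remaining 8 anchors had 0.884 per kb. At least 1 motif was in 7 of the 9 (77.8%) and in 80.1% of the 3885. Of 12 RefSeq promoters matched for 7 of the genes, 4, all of Sox6, held a SOX motif, against 15.7% of 32851 promoters. GATC, the site of the MboI enzyme that cuts the chromatin and so limits where loops can be seen, was in 5 of the 12 and in 48.0% of promoters. The motif of AP-1, TGANTCA, was in 0 of 12 and in 7.81%. A match says only that the letters occur.

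Other genes of the pathway were looked up in the same list. Of 12 cartilage genes known as targets of Sox9, Sox5 and Sox6, 3 were looped, with 3 tags at Col2a1 and 1 each at Col9a2 and Hapln1. Of 10 neural crest and glial targets of Sox10, 2 were looped, among them Mitf with 1 tag. Of 6 genes known as SoxC targets, 3 were looped, Mex3a with 49 tags, Tead2 with 14 and Prox1 with 2. Of the 11 Sox genes outside SoxC, SoxD and SoxE, 5 were looped, and Sox1 with 53 tags and Sox2 with 39 had more than Sox6. These counts stood beside a looped share of 45.8% of protein-coding genes. None of the genes on these 4 lists lay at a distal anchor of the 27 loops. These loops reached only 17 of the 21911 protein-coding genes, each on the chromosome of its Sox gene. Absence from such short lists therefore carried no information.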

How the data were processed

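The authors digested chromatin of 2 hSS2 tumors with MboI, immunoprecipitated H3K27ac after ligation, aligned reads to mm10 in HiC-Pro, called loops and merged both tumors. In the deposited list each loop has a raw count of the tags joining its anchors. Each loop also has an FDR from the authors' caller, which is an adjusted p-value, below 0.05 throughout. The methods name hichipper as the caller and that threshold, whereas a supplementary legend names Mango and 0.01. All listed loops were used. PCR duplicates and cell mixture can affect tags, and how tags were merged is not given in the sources used here. The tags of the listed loops summed to 41574, which counts called loops only and is not the sequencing depth. Positions were counted from 1, and all anchors lay within GRCm38 chromosome lengths.

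TSSs came from GENCODE vM21 transcripts, with chrM left out. Span was the distance between anchor midpoints, and where both anchors lay at a gene, the one farther from its 5′ end was the distal anchor. A score sums tags and was not divided by gene or anchor length. Exact Poisson intervals were given for tags and Wilson intervals for shares, and both treat the units counted as independent. No test was made, because there are no replicate values. Partners were named at loops with at least 2 tags and, for genes with single-tag loops only, at the shortest and longest. Other partners and the loops between 2 and 5 kb from a TSS were named after their values were seen. Counting overlapping anchors once, leaving out the intronic Sox6 anchor and the interval of Sox6 without short loops were chosen after seeing the data. The members and lists were chosen with earlier results of these data known. The assignment was tested on simulated data with planted loops. Scripts ran in Python 3.11.15 with pandas 2.3.3, pysam 0.24.0, scipy 1.17.1, matplotlib 3.10.9 and numpy 2.4.6. The partner at 1 loop of Sox5 and the value of 1 gene of the target lists are not reported here. MACS2, named in the submitters' processing notes, made no file used here.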

Additional observations from a re-analysis of the deposited data

How the results depend on the processing

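No paired analysis was possible because both tumors are merged in a single list, and no replicate could be left out. Of 15 alternatives, those on promoter windows, TSS sets, span, anchor width and repeated loops kept the number of looped genes at 6. With an FDR under 0.01, 4 genes, 7 loops and 24 tags were left. With an FDR under 0.001, 3 genes were looped with 20 tags, and the share of distal anchors near another gene was 80.0%. With at least 2 tags the sum was 28 and the median span 239 kb. With at least 4 tags 3 genes were looped with 18 tags and a median span of 18 kb. The share was then 3 of 3 or 100%, with the loop between the 2 Sox6 promoter anchors among them. The number of loops in place of tags was 27. The first part alone gave 19 tags, a share of 83.3% and a median span of 855 kb, and the second 28 tags, 40% and 226 kb. Of 90 scores of the 6 looped genes under these alternatives, 67 stayed within their interval and 23 did not. Sox13 had a loop in all 15 alternatives, Sox9 in 10 and Sox5 in 11. Low tag counts limit what single loops can show, and 19 of the 27 rest on 1 tag.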
